A study of Mus musculus with 35 samples.

Results

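The transcriptional response to IL-2 at pH 7.4 was read from 10 of the 35 RNA-seq libraries of the series, chosen by their titles: 5 libraries of cells cultured at pH 7.4 with IL-2 and 5 cultured at pH 7.4 without it, matched by the replicate numbers 1 to 5. The cells were OT-I CTLs, cytotoxic CD8+ T lymphocytes from mice whose T cells carry a transgenic receptor specific for ovalbumin. The study activated naive cells with antibodies to CD3 and CD28 and then grew them in murine IL-2 before the experiment, so both groups had been grown in the cytokine. The group with IL-2 was then kept for 24 h at pH 7.4 with 200 IU/mL murine IL-2, and the group without IL-2 for 24 h in the same medium at pH 7.4 with no added IL-2. Another group of 5 libraries was made at the start of these cultures (0 h). The remaining 20 libraries came from the same design at pH 7 and pH 6.6 and served here only to ask whether the response at pH 7.4 differed from that at a lower pH. Dead cells were removed on a Ficoll gradient before RNA extraction. The comparison contrasts sustained IL-2 with its withdrawal, and the labels do not record how many cells had died or divided in either group.

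IL-2 binds a receptor of an alpha, a beta and a common gamma chain (Il2ra, Il2rb and Il2rg). JAK1 and JAK3, bound to the beta and gamma chains, phosphorylate STAT5A and STAT5B, which activate genes such as Cish and Bcl2. The receptor also engages the RAS-MAPK cascade and PI3K, and in activated CD8+ T cells IL-2 sustains mTORC1 activity and c-Myc. CTLs depend on this cytokine for growth, division and their cytotoxic programme, whereas its loss favours quiescence, a memory-like programme and apoptosis.

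Between 21982865 and 28681772 reads were counted on genes in the libraries without IL-2, and between 23505962 and 30734999 in those with IL-2. Levels are given as CPM, read counts scaled to the total of each library and its TMM factor. Fold changes are log2 ratios of cells with IL-2 to cells without, and a gene was called when the Benjamini-Hochberg adjusted p-value of edgeR's quasi-likelihood test was under 0.05. The CD3 chains, Cd8a, Cd8b1 and Trac together reached 3410.2 to 4001 CPM without IL-2 and 2812 to 3343 CPM with it. Markers of B cells summed to at most 2.66 CPM in any of the 10 libraries, myeloid markers to at most 2.98 CPM and erythroid markers to at most 0.0969 CPM. Ms4a1, Pax5 and Csf1r had no read in these libraries, and Cd79a and Lyz2 stayed under 0.3 CPM. The summed dendritic cell list lay at 0.984 to 6.4 CPM without IL-2 against 0 to 0.123 CPM with it, all but a trace of it from Flt3, while Siglech and Clec9a had no read in either group. Markers of NK cells summed to 26.4 to 47 CPM without IL-2 and 52.5 to 56.1 CPM with it, nearly all from Klrb1c and Klre1, and the defining gene Ncr1 stayed under 0.1 CPM. The CD4 T cell list reached 25.7 to 38.3 and 17.4 to 33.4 CPM, nearly all of it Zbtb7b, while Cd4 itself was at most 0.892 CPM. The gamma delta list, nearly all of it Trdc, reached 653 to 816 and 485 to 594 CPM. The part of these differences in the results below was not tested. As RNA was taken from whole cultures, a change in the share of a kind of cell and a change of RNA within each cell cannot be told apart.

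IL-2 moved most of the expressed transcriptome. Of 13819 genes tested, 5433 were higher with IL-2 (39.3%) and 5678 were lower (41.1%). At least a 2-fold change was seen in 2775 of the higher genes (20.1% of genes tested) and 2882 of the lower genes (20.9%). All 5 libraries with IL-2 lay above all 5 without it for 4538 genes (32.8%) and below them for 4559 (33%). The median log2 fold change over all genes was -0.04, and it shifted to -0.2 when libraries were scaled to their total counts alone. On a principal component map of the 15 libraries at pH 7.4 and 0 h, the first component held 67.8% of the variance and placed the cells without IL-2 between 93.2 and 100.3, those with IL-2 between -73.7 and -56.7 and the starting cells between -39.1 and -23.8. The cells with IL-2 and the starting cells were thus on one side of this axis and the cells without IL-2 on the other. With such a large background of called genes, a group of genes stands out here by the size and the common direction of its changes rather than by the number called. The counts of called members in the lists below stand against these shares of 39.3% higher and 41.1% lower.

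**Figure D1:**
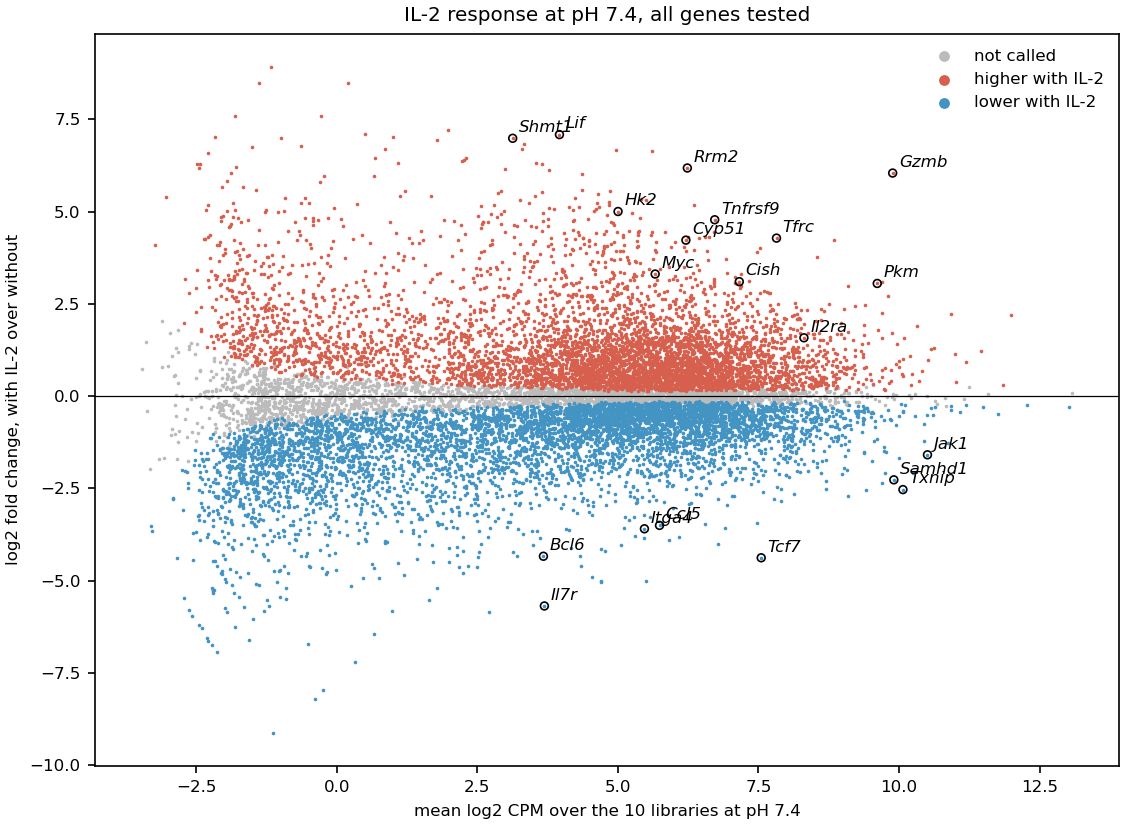
Log2 fold change with IL-2 over without (vertical axis) against the mean log2 CPM over the 10 libraries at pH 7.4 (horizontal axis), with 1 point for each of the 13819 genes tested, red for genes called higher, blue for genes called lower and grey for the rest. Gzmb combined one of the largest rises (6.05) with a very high level, and Tcf7 and Il7r were among the deepest falls (-4.38 and -5.68).

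The 10 largest rises among genes of at least moderate expression held a single secreted factor, Lif, and otherwise enzymes and regulators of DNA synthesis and division. Leukaemia inhibitory factor mRNA stood at 1.26, 0.393, 0.551, 2.59 and 3.0 CPM in the 5 libraries without IL-2 and at 189, 171, 185, 191 and 223 CPM with it, in the order of the replicate numbers, a log2 fold change of 7.09 ± 0.59 (SE, adjusted p = 2.5e-11). Shmt1, which makes one-carbon units from serine in the cytosol, rose by 6.99 ± 0.23 from 1.39, 0.51, 0.466, 0.709 and 0.685 CPM to 102, 99.4, 93.1, 99.3 and 98.2 CPM. No library of one group reached into the range of the other for either gene. The other 8 were the origin licensing factor Cdc6 (6.83), the mitotic kinase Pbk (6.69), Uhrf1 (6.67), which guides maintenance DNA methylation, the PCNA-associated factor Pclaf (6.65), Cdca7 (6.31), the replication initiator Mcm10 (6.3), the ribonucleotide reductase subunit Rrm2 (6.18) and the cell cycle repressor E2f8 (6.14). The 10 largest falls were led by Il7r, the alpha chain of the IL-7 receptor, which stood at 91.7, 100.1, 106, 89.8 and 74.9 CPM without IL-2 and only 3.57, 1.81, 1.31, 1.78 and 1.04 CPM with it (log2 fold change -5.68 ± 0.19, adjusted p = 4.0e-23). They also held Gm14085 (-5.04), Slc26a11 (-5.02), a sulfate transporter, Tbc1d4 (-5.02), a brake on glucose transporter traffic, Arl5c (-4.9), the non-coding C030034L19Rik (-4.6), Tcf7 (-4.38), Tent5c (-4.34), a poly(A) polymerase, Bcl6 (-4.34) and Rflnb (-4.32). Only 69.7% of the exon sequence of Gm14085, read in 50-base pieces, is unique to it, and 43.6% of the exons of C030034L19Rik overlap a gene on the opposite strand, so these 2 values are less certain.

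The IL-2 receptor chains and their kinases responded in different directions. Il2ra (chr2:11642807-11693193, GRCm38, GENCODE M21), the high-affinity alpha chain, stood at 216, 191, 176, 191 and 146 CPM without IL-2 and at 539, 544, 565, 542 and 555 CPM with it, and rose by 1.58 ± 0.11 (adjusted p = 5.1e-15). The beta chain, Il2rb, went from 540.2, 652, 661, 661 and 725 CPM to 869.8, 1211, 1057, 1164 and 1028 CPM (0.71 ± 0.1, adjusted p = 4.7e-08). Both sets of libraries were separate, and the alpha chain moved more than the beta chain. The common gamma chain rose little (0.23 ± 0.08, adjusted p = 0.0064), and 30.5% of its exon bases overlap another gene on the same strand. This last call was lost without replicate 1 (0.09, edgeR adjusted p = 0.26) and under total-count scaling (0.07, edgeR adjusted p = 0.39). Jak1 (chr4:101152367-101265282) went the opposite way, from 2363, 2601, 2813, 2389 and 2459 CPM without IL-2 to 773, 919.6, 905, 788 and 816 CPM with it, a fold change of 3.01 in favour of the cells without IL-2 (log2 -1.59 ± 0.07, adjusted p = 1.7e-20). Its partner Jak3 was not called (0.01 ± 0.13, adjusted p = 0.93). Stat5a was not called either (-0.05, adjusted p = 0.64), while Stat5b fell slightly (-0.39 ± 0.07). Under total-count scaling Stat5a was called lower (-0.2, edgeR adjusted p = 0.044). Of the other STATs in the list, Stat3 rose by 0.27 (not called under total-count scaling) and Stat4, which relays IL-12, fell (-1.78).

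Among 23 tested genes for other cytokine receptors, 5 were higher and 17 lower (2 of the 25 listed were below the filter). The largest fall was that of Csf2rb (-6.24), the common beta chain of the GM-CSF, IL-3 and IL-5 receptors. Beside Il7r, the falls also took in both chains of the type I interferon receptor (Ifnar1 -1.12, Ifnar2 -0.69), the interferon gamma receptor chain Ifngr1 (-1.52), the shared IL-6 family chain Il6st (-1.1) and Il17ra (-1.07). The IL-12 receptor moved the other way: Il12rb1 rose by 2.56 and Il12rb2 by 0.74. Il1rl1, the IL-33 receptor ST2, rose by 3.79. Il21r (1.24) and the IL-18 receptor accessory chain Il18rap (1.03) also rose.

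**Figure D2:**
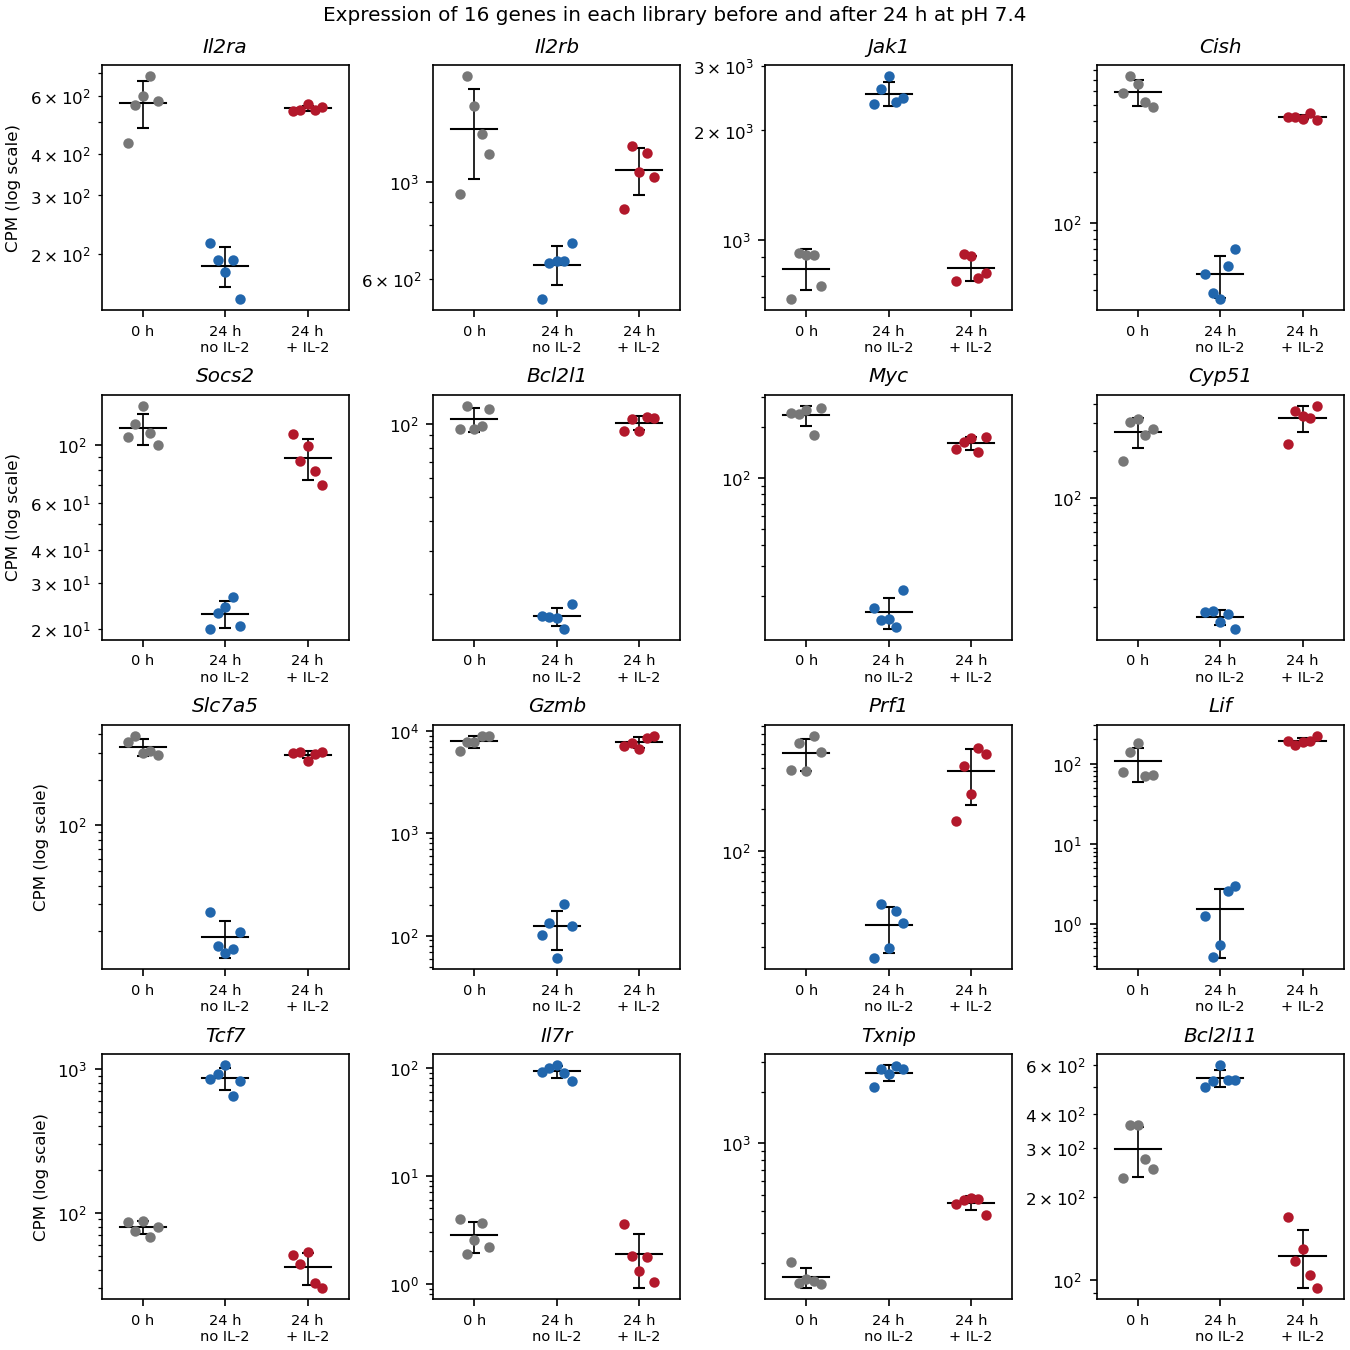
CPM on a log scale in each of the 5 libraries at 0 h (grey), after 24 h at pH 7.4 without IL-2 (blue) and after 24 h at pH 7.4 with IL-2 (red) for 16 genes. Points are libraries, and the horizontal bar and whiskers give the mean and SD (n = 5). In each panel the blue points lie apart from the red ones, below them for Il2ra, Cish, Myc, Cyp51, Gzmb and Lif and above them for Jak1, Tcf7, Il7r, Txnip and Bcl2l11.

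Immediate targets and feedback inhibitors of STAT5 were mixed. Cish, an SH2 protein that damps cytokine signalling, was at 49.9, 38.2, 35.4, 55.7 and 70.03 CPM without IL-2 and 423, 423, 413, 443 and 407 CPM with it (3.1 ± 0.18, adjusted p = 4.0e-16). Socs2 went from 20.1, 23, 24.3, 26.3 and 20.5 CPM to 109.7, 86.4, 99.2, 79.4 and 70.4 CPM (1.96 ± 0.09), and Socs1 from 23.2, 21.8, 18.3, 14.5 and 15.5 CPM to 87.4, 64.1, 68.7, 57.7 and 52.2 CPM (1.82 ± 0.17). All 3 showed separate groups. Socs3, the family member best known for restraining IL-6 signals, fell instead (-0.64 ± 0.19, adjusted p = 0.0034), as did Socs4 (-0.57) and Socs5 (-0.35). Socs6 (-0.06) and Socs7 (-0.11) did not pass the test, although Socs6 did so without replicate 1 (-0.22) and Socs7 without replicate 2 (-0.23). Under total-count scaling both were called lower (-0.22 and -0.27). Each of the 3 Pim survival kinases rose, in the order Pim3 (2.21), Pim2 (1.13) and Pim1 (0.36). Over these 11 genes, 6 were higher and 3 lower, with a median of 0.36.

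In a wider list of 58 genes known to respond to IL-2 or STAT5 in T cells, 57 were tested, 34 were higher and 15 lower (median 0.71, against -0.04 over all genes). The 4 largest rises in it were Lif, the protease Gzmb, the costimulatory receptor 4-1BB (Tnfrsf9, 4.78) and CD30 (Tnfrsf8, 4.67). Osm, a cytokine of the same family as Lif, rose by 3.31. Its 4 largest falls were the retinal reductase Dhrs3 (-4.09), the surface protein Cd83 (-2.73), the inhibitory receptor Ctla4 (-2.7) and the nuclear receptor Rora (-2.23), and lymphotoxin beta (Ltb, -2.13) fell as well. The list was written with results of these data known, so its direction is a description.

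The search for the STAT palindrome TTCNNNGAA in promoters covered the 250 bases before each RefSeq start site (GRCm38.p6), on both strands, for 9977 of the genes tested. It was present in 7.02% of all 32851 windows, in 5.88% of the windows of genes tested, in 5.71% of the windows of genes that rose by at least 2-fold and in 5.89% of those that fell by as much. In the list of IL-2 and STAT5 responsive genes it was present in 7 of 59 windows (11.9%), in that of FOXO target genes in 5 of 25, in that of ribosome biogenesis factors in 7 of 70, in that of mitotic genes in 4 of 73 and in that of replication genes in 3 of 58. These shares rest on few windows and were not tested. The windows of Cish, Socs1, Pim1, Il2ra and Lif held no match. Socs3 held 1 match. Bcl6, a transcriptional repressor that fell with IL-2, has 2 start sites in the table, of which the upstream one held 1 match and the downstream one 3. Socs3 and the downstream window of Bcl6 are shown from 5′ to 3′ on the strand of the gene, ending at the base before the start site, because they carry the motif and belong to genes that were lower with IL-2. Capitals mark the matches.
Socs3 (chr11:117969367-117969616, minus strand): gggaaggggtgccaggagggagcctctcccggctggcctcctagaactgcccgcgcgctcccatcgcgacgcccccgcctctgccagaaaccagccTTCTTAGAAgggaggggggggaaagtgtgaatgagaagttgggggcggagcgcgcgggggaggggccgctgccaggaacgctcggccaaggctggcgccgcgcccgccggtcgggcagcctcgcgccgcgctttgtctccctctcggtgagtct
Bcl6 (chr16:23981284-23981533, minus strand): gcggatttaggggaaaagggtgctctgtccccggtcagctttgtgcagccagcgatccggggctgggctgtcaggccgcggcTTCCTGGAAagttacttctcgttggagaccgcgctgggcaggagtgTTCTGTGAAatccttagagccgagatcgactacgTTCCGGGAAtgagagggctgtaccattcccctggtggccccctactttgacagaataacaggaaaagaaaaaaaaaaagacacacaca

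Most genes that respond to the RAS-MAPK branch rose. Of 27 feedback and immediate early genes, 19 were higher and 4 lower (median 1.33). The AP-1 subunit Fosl1 (5.23), the ERK phosphatases Dusp4 (3.48), Dusp5 (2.07) and Dusp6 (1.36) and the inhibitors Spry4 (4.16), Spred1 (2.16) and Spred2 (1.54) were among them. Dusp4 was at 1.45, 2.47, 1.02, 2.5 and 2.61 CPM without IL-2 and 16, 24.5, 23.5, 28.1 and 20.3 CPM with it. The kinases and adaptors of the cascade itself were divided, with 10 of 20 higher and 7 lower and a median of 0.12, which fell below 0 under total-count scaling. Genes of the PI3K branch were divided as well (6 of 18 higher, 8 lower). Pik3ip1, a membrane inhibitor of PI3K, fell from 257, 271, 279, 219 and 251 CPM to 20.2, 16.8, 19.2, 16.8 and 17.1 CPM (-3.83 ± 0.1). The AKT phosphatase Phlpp1 (-1.71) fell as well, whereas Akt1 rose by 1.12. In the list of 35 mTORC1 components and regulators, 14 were higher and the same number lower, near the shares over all genes tested (39.3% and 41.1%). Rptor (-1.27) and Rictor (-1.34), the scaffolds of the 2 mTOR complexes, and the leucine sensor relative Sesn3 (-1.22) fell, while Rheb, the GTPase that activates mTORC1, rose by 1.04. Mtor itself had a value of 0.01 (adjusted p = 0.94).

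Myc, the transcription factor of growth and biosynthesis, stood at 17.2, 14.6, 14.7, 13.1 and 21.7 CPM without IL-2 and at 148, 164, 173, 142 and 174 CPM with it (3.31 ± 0.12, adjusted p = 8.2e-22). Its relative Mycn rose further in relative terms, from 1.29, 1.88, 2.63, 2.09 and 1.93 CPM to 37, 64.4, 58.1, 57.8 and 49.2 CPM (4.76 ± 0.12). The lowest library with IL-2 was above the highest without it for both genes. Among the partners and antagonists of MYC, Max rose by 0.76, and the competing repressors Mxd4 (-2.95), Mxi1 (-0.86), Mxd1 (-0.74), Mnt (-0.47) and Mga (-0.52) fell. Mxd3, which is known to be expressed in S phase, rose by 4.71.

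Cell cycle genes made up the strongest common movement. Of 22 genes for D, E and A cyclins, their kinases and E2F factors, 19 were higher and 2 lower (median 2.2). Cyclin D2 and D3, which couple growth signals to the cycle, rose by 1.51 and 2.23 and Cdk6 by 1.86. Larger log2 fold changes were found for the E2F-driven Ccne2 (4.59), Ccna2 (5.17) and E2f7 (6.4). Every one of 63 tested genes of DNA replication and S phase was higher, up to 7.2 for the origin recognition subunit Orc1 (median 3.36, between 2.9 and 3.52 in the 5 pairs). In the list of 79 mitotic and G2/M genes, 77 were higher and 1 was lower (median 4.05, between 3.57 and 4.43 in the pairs). Cdk1, the kinase that drives entry into mitosis, went from 7.82, 8.13, 8.98, 4.76 and 4.19 CPM to 248, 271, 289, 265 and 294 CPM (5.35 ± 0.21, adjusted p = 1.9e-20). Cdc6 went from 1.07, 0.707, 1.27, 0.542 and 0.984 CPM to 95, 108, 109.9, 99.7 and 109 CPM. The libraries with IL-2 were all far above those without for both. The single lower member of the mitotic list was securin (Pttg1, -0.8), and the 1 that did not pass the test was G2e3 (0.23, adjusted p = 0.17).

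Brakes on the cycle moved in both directions. Cdkn1b, the p27 inhibitor of CDK2, went from 580.03, 525, 665, 622 and 498 CPM without IL-2 to 109, 79.3, 87.3, 75.3 and 75.2 CPM with it (-2.77 ± 0.19). Trp53inp1 (-2.52), Gadd45b (-2.51) and the anti-proliferative Btg2 (-2.2) fell with it. The INK4 inhibitors Cdkn2a (3.39) and Cdkn2c (1.87), Cdkn1a (0.71), which encodes p21, and Gadd45g (1.59) rose. Over the 18 tested genes of this kind, 7 were higher and 10 lower.

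Promoter letters known from cell cycle genes were searched in the same windows, on both strands, and matches of different motifs were counted separately even where they overlapped. The E2F forms TTTCCCGC and TTTGGCGC were present in 13.8% of the 58 windows of replication genes, against 1.3% of all windows and 2.48% of the windows of genes tested. The form TTTGAA of the cell cycle homology region was present in 38.4% of the 73 windows of mitotic genes, against 16% and 10.8%. The NF-Y box CCAAT was present in 69.9% of the mitotic windows, against 33.8% and 35.3%, and was also present in 60.3% of the replication windows and in 15 of the 25 windows of FOXO target genes. Among all genes that rose by at least 2-fold, these shares were 3.64% for E2F, 12.3% for TTTGAA and 39.1% for CCAAT, and among those that fell by as much 1.45%, 10.9% and 33.6%. The MYC E-box CACGTG was present in 8.92% of the windows of genes that rose by at least 2-fold, 6.64% of those that fell by as much, 8.12% of those of genes tested and 4 of the 70 windows (5.71%) of ribosome biogenesis genes. The FOXO form GTAAACA was present in 1.84%, 3.19% and 2.26% of the first 3 of these sets and in 3 of the 25 windows (12%) of FOXO target genes. Mcm6, a subunit of the replicative helicase (2.33), and Cdc6 are shown because they hold E2F matches and Cdk1 because it holds TTTGAA in 2 places, the nearer of them starting 15 bases before the start site. The other windows inspected were those of Mcm5, with 1 E2F match, Cdc20, with 1 TTTGAA match, and Aurka, Bub1 and Plk1, with no TTTGAA match. The shares in the lists rest on few windows and were not tested. Capitals mark the E2F matches in Mcm6 and Cdc6 and TTTGAA in Cdk1.
Mcm6 (chr1:128359706-128359955, minus strand): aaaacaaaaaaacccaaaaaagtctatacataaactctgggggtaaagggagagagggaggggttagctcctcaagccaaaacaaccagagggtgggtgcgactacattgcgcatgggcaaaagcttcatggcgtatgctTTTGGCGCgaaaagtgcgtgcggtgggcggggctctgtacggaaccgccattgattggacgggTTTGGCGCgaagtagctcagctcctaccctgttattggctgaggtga
Cdc6 (chr11:98907901-98908150, plus strand): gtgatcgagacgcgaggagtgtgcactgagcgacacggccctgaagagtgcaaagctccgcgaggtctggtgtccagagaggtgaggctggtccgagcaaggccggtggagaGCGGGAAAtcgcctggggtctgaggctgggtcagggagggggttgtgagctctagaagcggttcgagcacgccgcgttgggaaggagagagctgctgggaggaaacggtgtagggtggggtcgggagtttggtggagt
Cdk1 (chr10:69352913-69353162, minus strand): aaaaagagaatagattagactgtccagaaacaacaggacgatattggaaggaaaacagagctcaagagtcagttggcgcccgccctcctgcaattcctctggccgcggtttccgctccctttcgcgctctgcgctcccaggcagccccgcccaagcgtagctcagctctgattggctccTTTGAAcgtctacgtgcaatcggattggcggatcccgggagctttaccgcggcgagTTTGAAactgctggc

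Most factors that build ribosomes rose, whereas the ribosomal proteins had called members in both directions. Of 67 tested ribosome biogenesis factors, 62 were higher and 3 lower (median 1.85, between 1.67 and 1.91 in the pairs). Grwd1 (3.3), the nucleolar phosphoprotein Nolc1 (3.06) and the box C/D snoRNP core proteins Nop58 (3.06) and Nop56 (2.99) led the list, and Nop53 (-1.04), Nvl (-0.57) and Ddx52 (-0.6) fell. Over 79 genes for cytosolic ribosomal proteins, 30 were higher, 19 lower and the median was 0.01, and the pair medians ran from -0.33 to 0.33. Without replicate 2, 11 were lower, and under total-count scaling the number was 34. Many of these genes have near-identical copies, and reads with more than one alignment were not counted. In contrast, 68 of 76 tested genes for mitochondrial ribosomal proteins were higher (median 0.96). Among 20 cytosolic aminoacyl-tRNA synthetases, 19 were higher and none was lower (median 1.47), with Qars (-0.08, adjusted p = 0.24) alone failing the test. Translation factors followed, with 32 of 44 higher. Their largest rises were Eef1e1 (2.99), Eif5a (2.98), the cap-binding protein Eif4e (2.56) and the helicase Eif4a1 (2.31), the last of which has 71.6% of its 50-base pieces unique to it.

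Most genes of protein folding and turnover also rose. All 42 tested proteasome subunits and assembly factors were higher, with values from 0.25 to 2.33 and a median of 1.39. Chaperones of the cytosol and mitochondria counted 30 of 34 higher, and Dnajc7 (-0.95) lower. The mitochondrial chaperones Hspd1 (2.8, 60.3% unique) and Hspa9 (2.51) and the HSP90 co-chaperone Stip1 (2.41) were among the larger rises. ER chaperones rose as well (26 of 31 higher, median 1.3), led by Sdf2l1 (3.94) and Hsp90b1 (2.46). The 4 lower members of this list, which also holds genes of the unfolded protein response, were the sensors Ern1, which encodes IRE1 (-1.82), and Eif2ak3, which encodes PERK (-1.08), the pro-apoptotic transcription factor Ddit3 (-1.98) and the co-chaperone Dnajb9 (-0.69), whereas the sensor Atf6 rose by 0.43.

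Most genes of amino acid supply rose. Slc7a5, the light chain of the large neutral amino acid transporter, went from 26.7, 15.8, 14.4, 15.1 and 19.6 CPM to 302, 304, 266, 295 and 304 CPM (4.06 ± 0.17, adjusted p = 1.8e-20). Its heavy chain Slc3a2 rose by 1.22, the cationic carrier Slc7a1 by 3.14 and the glutamine carrier Slc1a5 by 1.12. Carriers that export from or sense within the lysosome fell instead (Slc38a9 -2.16, Slc36a1 -1.46). In the list of ATF4 and amino acid response genes, 24 of 28 tested members were higher (median 2.22), with Atf4 itself at 0.57, and Ddit3 was the one that fell. Without replicate 5 a second member was lower, giving 2. Serine and one-carbon enzymes had 16 of 21 tested members higher and 5 lower (median 2.45). Psat1, which makes the precursor of serine, rose by 3.96, and Mthfd1 by 4.45. Nucleotide synthesis genes followed (35 of 40 higher, 3 lower), where Rrm2 was joined by the CTP synthetase Ctps (4.43) and the kinase Tk1 (4.31), while the mitochondrial kinase Tk2 fell (-1.59). In the polyamine pathway, spermidine synthase (Srm) rose by 5.23 and ornithine decarboxylase (Odc1, 75.7% unique) by 2.05, and the catabolic enzyme Sat1 fell (-1.89).

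Most genes of glycolysis and lipid synthesis rose with IL-2. Of 28 genes of glycolysis and the pentose phosphate pathway, 23 were higher and 1 was lower (median 1.53). Hexokinase 2 (Hk2) went from 8.05, 4.52, 4.02, 6.13 and 6.81 CPM to 130.4, 195, 159.9, 198 and 217 CPM (5.0 ± 0.26), and the lactate exporter Slc16a3 (4.46), Tpi1 (4.01), Ldha (3.1) and the glucose carrier Slc2a1 (2.17) rose as well. The lower member was Pfkfb4 (-0.67). Cholesterol synthesis and uptake had 25 of 30 tested genes higher (median 1.75). Cyp51, which demethylates lanosterol, rose from 18.4, 18.7, 15.9, 18 and 14.5 CPM to 222, 358, 333, 327 and 388 CPM (4.23 ± 0.15), and Hsd17b7 (3.8) rose as well. The 3 lower members were the efflux pumps Abca1 (-4.63) and Abcg1 (-1.73) and the lysosomal carrier Npc2 (-1.22). In fatty acid synthesis 12 of 16 tested genes were higher, and fatty acid oxidation was evenly split, with 9 of 21 higher, 9 lower and Cpt1a, its entry step, at -1.2.

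Nuclear genes of respiration rose by smaller amounts. Of 77 subunits and assembly factors of oxidative phosphorylation, 71 were higher (median 0.9), and 27 of 32 tested genes of pyruvate entry and the TCA cycle were higher. Pdk2, a kinase that shuts off pyruvate dehydrogenase, fell (-3.81). The mitochondrial genome contributed few calls, with 7 of 13 above the filter, 3 higher, 1 lower and a median of 0.24. The lower count was 3 without replicate 1, 2 without replicate 2 and 0 without replicate 4 or replicate 5. The transferrin receptor (Tfrc), which brings in iron, rose by 4.28 ± 0.14, whereas the other 11 tested genes of iron handling were divided (3 higher and 4 lower). HIF target genes had 13 of 22 higher and 5 lower (median 0.92). The pair median was 0.29 in pair 1 and 1.02 to 1.23 in the other pairs. Txnip, which blocks glucose uptake, was at 2137, 2732, 2540.3, 2822 and 2735 CPM without IL-2 and at 444, 465, 481, 472 and 382 CPM with it (-2.53 ± 0.09, adjusted p = 5.0e-22), and its relative Arrdc4 fell too (-2.71). Redox enzymes such as Prdx1 (2.42) and Txn1 (2.1) rose, with 16 of 25 genes of that list higher and 3 lower (6 lower without replicate 1 and 5 without replicate 2).

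**Figure D3:**
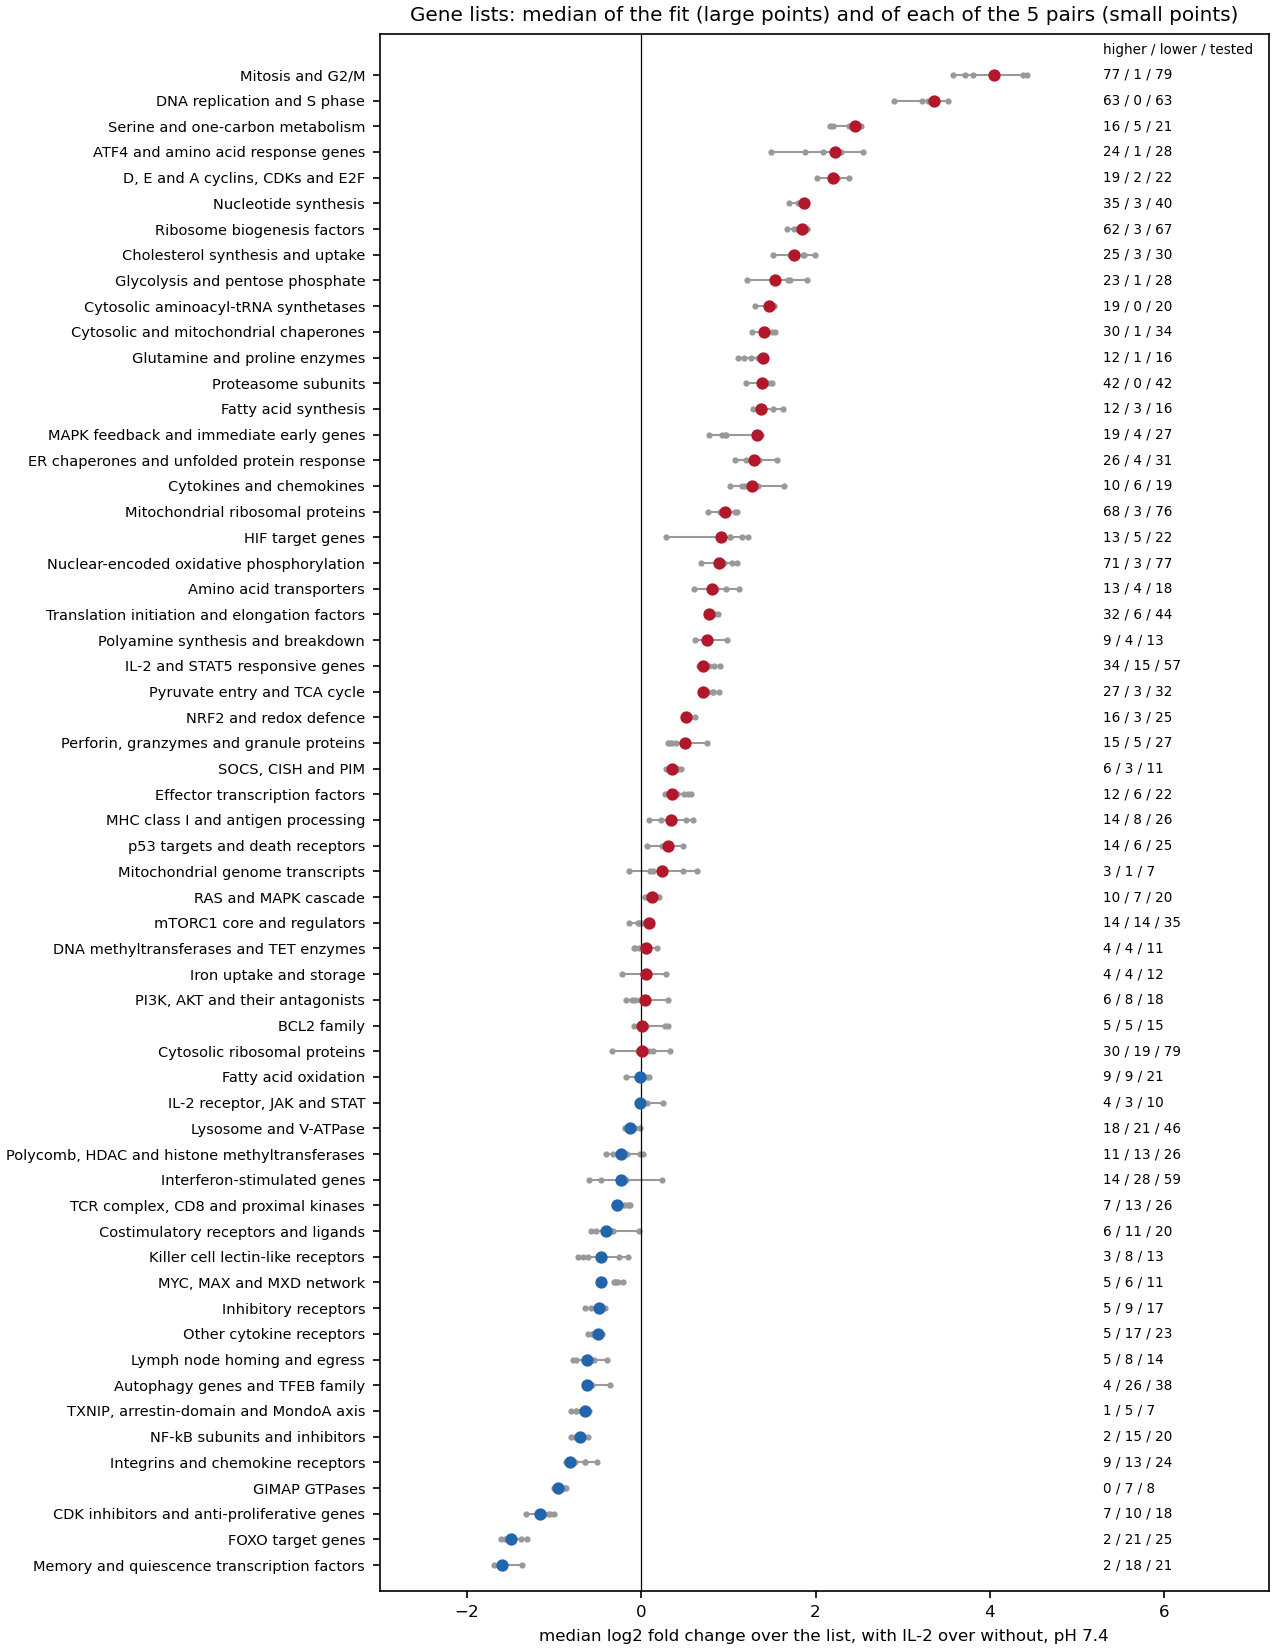
Median log2 fold change with IL-2 over without at pH 7.4 (horizontal axis) for 59 gene lists (vertical axis). Large points are medians of the fit, red above and blue below 0, small grey points are the medians of the 5 replicate pairs, and the numbers at the right give the members called higher, called lower and tested. The cell cycle lists lie at the top, with medians of 4.05 and 3.36, and the lists of FOXO targets and of memory and quiescence factors at the bottom, with -1.5 and -1.6.

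Cytotoxic granule genes rose in part. Granzyme B was at 101, 135, 60.4, 202 and 123 CPM without IL-2 and at 7211, 7607, 6696, 8458 and 9009.6 CPM with it, a fold change of 66.1 (log2 6.05 ± 0.2, adjusted p = 1.1e-22). Perforin (Prf1), the pore-forming protein, went from 16.5, 41, 19.5, 36.5 and 29.8 CPM to 164, 412, 260.2, 562 and 501 CPM (3.69 ± 0.18). The libraries with IL-2 lay above those without in both cases. Gzma (2.72) and Gzme (2.94) rose as well, the latter with 79.4% of its 50-base pieces unique among the clustered granzyme genes, and so did Serpinb9 (2.63), an inhibitor that protects the killer from its own granzyme B. The granzyme activator Ctsc (-0.81) and the death ligand Tnfsf10 (-0.37) fell, and the granule release factor Unc13d (-0.07), the death ligand Fasl (0.07) and the cystatin Cst7 (0.09) were not called. Over 27 granule genes, 15 were higher and 5 lower, with a median of 0.5.

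Cytokine genes moved in both directions. Of 19 tested (27 listed), 10 were higher and 6 lower. Interferon gamma mRNA stood at 5.91, 9.62, 2.96, 13.3 and 4.15 CPM without IL-2 and 18.5, 25.2, 18.4, 30.5 and 24.1 CPM with it (1.78 ± 0.25, adjusted p = 1.4e-07), with the lowest library with IL-2 above the highest without it. Lta (2.9) and Osm rose with it. Ccl5, a chemokine of memory CD8+ T cells, fell from 190.3, 228, 177, 170.5 and 141 CPM to 19.5, 15, 19.5, 13.7 and 12.9 CPM (-3.5 ± 0.12), together with Ltb, Csf1 (-1.83) and Il16 (-1.15). Of 20 costimulatory receptors and ligands, 6 were higher (4 by at least 2-fold) and 11 lower (7 by at least 2-fold). Among the higher, 4-1BB went from 17.7, 25.5, 14.3, 26 and 19.7 CPM to 346, 538, 522, 671 and 780.3 CPM. Among the lower were CD70 (-3.64), Slamf6 (-3.16), a marker of stem-like cells, CD27 (-2.0), HVEM (Tnfrsf14, -1.93) and OX40 ligand (Tnfsf4, -1.2). Inhibitory receptors were divided too (5 of 17 higher, 9 lower). Ctla4 (-2.7), Cd101 (-2.35), Nt5e (-1.46) and Pdcd1 (-1.39), which encodes PD-1, were lower with IL-2, whereas Havcr2 (1.7), which encodes TIM-3, Entpd1 (1.76), which encodes CD39, and Lair1 (1.57) were higher. The lectin-like receptor Klrd1 fell (-2.03), one of 8 lower genes among 13 tested in that family.

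Of 22 tested effector transcription factors, 12 were higher and 6 lower. Batf3 (5.17), Irf8 (3.32), Eomes (2.1), Nr4a3 (1.78) and Id2 (1.16) had the largest rises. Eomes, a T-box factor shared by effector and memory cells, went from 157, 144, 139, 141 and 136 CPM to 641, 623, 662, 552 and 590.4 CPM. Tbx21, which encodes T-bet, rose by 1.01, and Prdm1, which encodes Blimp-1, by 0.71. Ikzf2, which encodes Helios, was the largest fall, from 98.7, 105, 139, 105 and 99.6 CPM to 8.96, 7.05, 6.24, 4.84 and 4.38 CPM (-4.13 ± 0.19). Irf4 (0.2) and Hif1a (0.15) were not called.

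The transcription factors of memory and quiescence were nearly uniform in direction. Of 21 genes, 18 were lower with IL-2 and 2 higher (Eomes and Id3, the latter by 1.77), with a median of -1.6 and pair medians between -1.68 and -1.37. Tcf7 (chr11:52252371-52283014), which encodes TCF-1 and marks stem-like and memory T cells, was at 857, 932, 1066, 655 and 823 CPM without IL-2 and 50.4, 43.8, 53.5, 32.2 and 29.9 CPM with it (log2 -4.38 ± 0.1, adjusted p = 2.2e-26). Bcl6 went from 62.1, 57.1, 56.3, 59.2 and 51.7 CPM to 3.61, 3.16, 3.0, 2.4 and 1.99 CPM. All libraries without IL-2 were above all with it for both genes. The glucocorticoid-induced leucine zipper gene Tsc22d3 fell (-3.27), and so did Klf3 (-2.78), Bach2 (-2.55), Lef1 (-1.82) and Foxo1 (-1.05). The list of FOXO target genes, which shares some of these members, had 21 of 25 lower and 2 higher (median -1.5). Its members cover homing (S1pr1 -3.27 and Ccr7 -1.3), the cycle (Cdkn1b), insulin signalling (Irs2 -2.94, Insr -1.86) and death (Bcl2l11, Bbc3). The 2 that rose were Sod2 (0.51) and Bnip3 (2.58). Klf2, an activator of S1pr1, fell too (-1.82), while Cd69, an early activation antigen that opposes S1pr1 at the cell surface, rose by 1.47.

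Trafficking genes had called members in both directions, and their larger changes were mostly falls. Among integrins and chemokine receptors, 9 of 24 tested were higher and 13 lower, against 39.3% and 41.1% of all genes tested (median -0.82). By at least 2-fold, 1 was higher and 11 were lower, against 20.1% and 20.9% of all genes tested. Itga4, the alpha 4 integrin of VLA-4, went from 164, 155, 190.5, 149 and 131 CPM to 29.3, 15.3, 11.7, 9.35 and 6.19 CPM (-3.59 ± 0.22), and Itgb3 (-2.22), Itga1 (-1.58), Itgae (-1.49) and Cxcr3 (-1.41) fell too. The LFA-1 chains Itgb2 (0.94) and Itgal (0.59) and the chemokine receptor Ccr2 (0.6) rose. The GIMAP GTPases, which support lymphocyte survival, were lower in 7 of 8 cases (median -0.95), with Gimap6 at -1.45 and Gimap7 not called (0.01). NF-kB subunits and inhibitors were lower in 15 of 20, led by the feedback inhibitors Tnfaip3 (-2.34) and Nfkbia (-2.0) and the adaptor Traf1 (-2.3). Autophagy genes were lower in 26 of 38 (median -0.63), including the receptor Sqstm1 (-1.63), Atg14 (-1.69) and Map1lc3b (-1.63). Lysosomal genes were divided (18 higher and 21 lower of 46 tested), near the shares over all genes tested.

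In the list of 26 genes for the TCR complex, CD8 and proximal kinases, 7 were higher and 13 lower, with a median of -0.28. The T cell receptor alpha constant gene Trac (-0.85), Cd8b1 (-0.62), Cd3d (-0.46) and Cd3g (-0.41) fell, and the 3 members lower by at least 2-fold were the adaptors Trat1 (-1.66) and Lax1 (-1.2) and the phosphatase Ptpn22 (-1.05). Cd8a (-0.03) and Cd3e (-0.04) were not called, but both were called lower under total-count scaling (-0.19 and -0.2, edgeR adjusted p = 0.028 and 0.0024). Interferon-stimulated genes were mixed, with 14 of 59 tested higher and 28 lower and a median of -0.24 (from -0.6 to 0.23 in the pairs, above 0 in 1 of 5). The DNA sensor family gene Ifi213 (-3.44), the dNTP hydrolase Samhd1 (-2.27) and the Schlafen genes Slfn5 (-2.33) and Slfn1 (-1.82) fell. Isg15 (2.1), Usp18 (1.96) and Bst2 (1.76) rose. Samhd1 went from 1435, 2557, 2236, 2340.4 and 2124 CPM to 514, 441, 468, 394 and 389.8 CPM. In the antigen processing list, non-classical class I genes were lower (H2-Q4 -0.96, H2-Q6 -0.79, H2-Q7 -0.65, all members of a family with near-identical copies), and the proteasome activator Psme2 (1.56) and the lectin chaperone Calr (2.37) were higher, as was the class II invariant chain Cd74 (2.18).

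Genes of survival and death moved in both directions. Bcl2 rose by 1.52 ± 0.1, from 272, 217, 250.4, 246 and 205 CPM to 693, 681, 727, 655 and 636 CPM, and Bcl2l1, which encodes BCL-XL, by 2.63 ± 0.09, from 16.3, 16.1, 15.9, 14.4 and 18.3 CPM to 93.3, 104, 93.5, 107 and 106 CPM. Mcl1, another protective member, fell (-0.58). The BH3-only genes Bcl2l11, which encodes BIM (-2.15 ± 0.13), Bbc3, which encodes PUMA (-2.27), and Bmf (-3.37) fell, while the executioner Bak1 (1.71) and the BH3 gene Bid (1.4) rose. BIM mRNA was at 499, 525, 599, 532 and 529 CPM without IL-2 and 169, 118, 129.8, 104 and 93.9 CPM with it. Over the 15 tested genes of the family, 5 were higher and 5 lower. Among p53 targets and death receptors, 14 of 25 were higher and 6 lower.

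Chromatin genes moved in both directions. In the list of DNA methyltransferases and TET enzymes, 4 of 11 were higher and 4 lower. In that of Polycomb genes, histone deacetylases and histone methyltransferases, 11 of 26 were higher and 13 lower. Over all genes tested, 39.3% were higher and 41.1% lower, so the members named below are a description and not a pattern of their families. Maintenance DNA methyltransferase Dnmt1 rose by 2.81 and Uhrf1 with it, whereas Dnmt3a rose by only 0.49, Tet1 (-1.45), Tet2 (-0.37) and Tet3 (-0.62) fell and Dnmt3b was not called (0.05). The call for Tet2 was lost without replicate 3 (-0.34) or replicate 4 (-0.32). Of the 2 catalytic subunits of Polycomb complex 2, Ezh2 rose (2.0) and Ezh1 fell (-2.04). The methyltransferases Suv39h2 (4.74), Suv39h1 (2.37) and Nsd2 (1.77) rose, and Kdm7a (-2.64), Cbx7 (-2.43), Hdac5 (-2.11) and Kmt2a (-2.09) fell.

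Long non-coding RNAs moved as a class. Of the 964 tested genes annotated as such, 114 were higher with IL-2 and 662 lower (68.7% lower, median -1.23), while 43% of 11866 protein-coding genes were higher and 38.7% lower (median 0.06). The share of lower long non-coding RNAs was 68.4%, 71.6% and 64.3% in the lowest, middle and highest tier of expression over all genes tested, which held 827, 109 and 28 of them, against 42.2%, 37.2% and 38.1% of protein-coding genes in the same tiers. It was 67.1% among the 441 whose exons overlap no other gene. These RNAs took 1.1% to 1.34% of gene counts in the libraries without IL-2 and 0.612% to 0.759% in those with IL-2, a difference seen in 5 of 5 pairs (exact sign-flip test over pairs, two-sided p = 0.0625, the smallest that 5 pairs allow). Reads outside annotated genes moved along with them, at 7.7% to 10.2% of all reads without IL-2 and 3.91% to 5.18% with it (p = 0.0625 by the same exact test), and their part in the result was not tested. The 3 largest falls were C030034L19Rik, Mirt1 (-3.62) and 2010016I18Rik (-3.58). Of the 3 largest rises, Gm17767 (2.72) is annotated as a lincRNA, and Cct6a (2.35) and Ifi30 (2.73), known for their protein products, carry the type processed transcript in GENCODE M21.

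**Figure D4:**
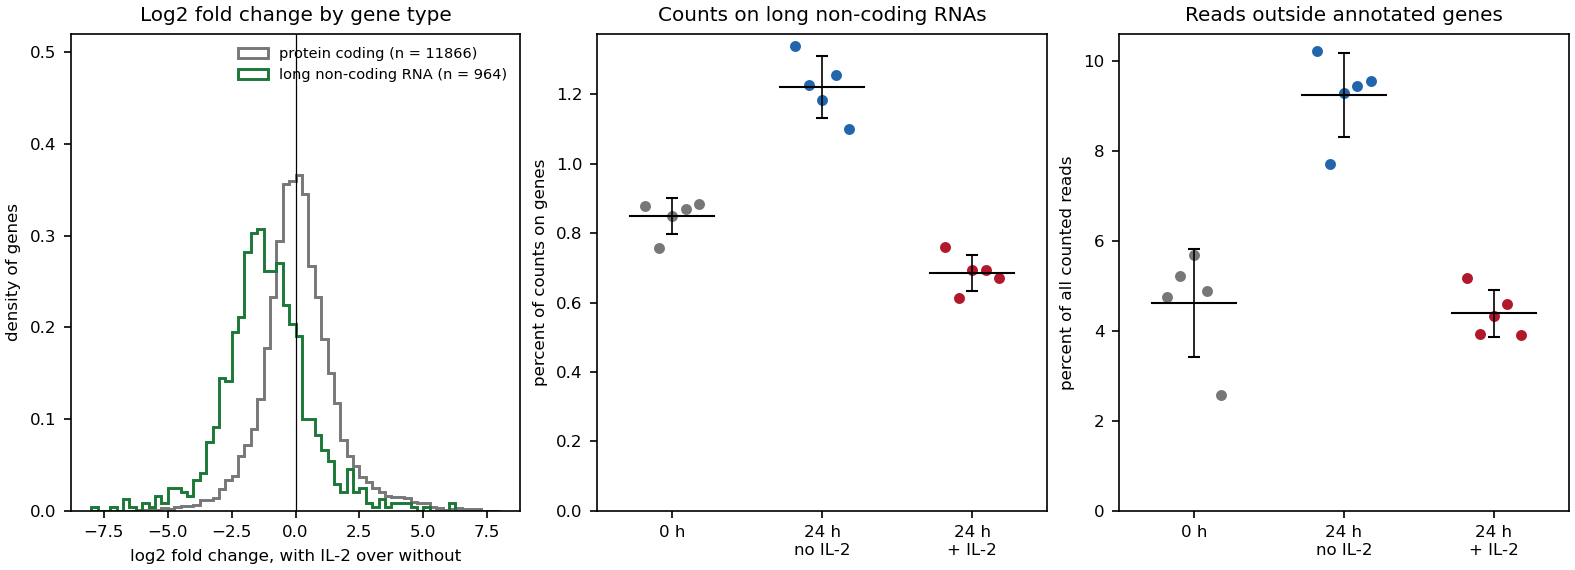
Left, density of log2 fold changes with IL-2 over without for protein-coding genes (grey) and long non-coding RNAs (green). Middle and right, percent of gene counts on long non-coding RNAs and percent of all reads outside annotated genes in each library at 0 h, without IL-2 and with IL-2, with mean and SD (n = 5). The libraries without IL-2 lie above the other 2 groups in both panels.

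The 0 h libraries place the 2 arms. After 24 h with IL-2 at pH 7.4, 4009 genes were higher than at 0 h (29%) and 4273 lower (30.9%), and after 24 h without IL-2 5103 were higher (36.9%) and 5295 lower (38.3%). Both comparisons use the same 0 h libraries. Gzmb (-0.04 with IL-2 and -6.08 without, each against 0 h), Il2ra (-0.06 and -1.64), Bcl2l1 (-0.05 and -2.68) and Jak1 (0.01 and 1.59) were not called against 0 h in the cells with IL-2 and were called in those without. Cish (-0.51 and -3.62), Myc (-0.54 and -3.85), Socs2 (-0.38 and -2.33) and Pim2 (-1.49 and -2.63) fell in both arms, further without IL-2. Tcf7 fell further with IL-2 (-0.94) and rose without it (3.44), and Bcl6 (-1.27 and 3.06) and Il7r (-0.6 and 5.08) behaved alike. Txnip rose in both arms (1.44 and 3.98). The cell cycle lists moved apart in both directions from 0 h, with medians of 2.05 and -1.95 for mitotic genes and 1.59 and -1.62 for replication genes. Ribosome biogenesis factors had medians of 0.48 and -1.28, and the proteasome 0.69 and -0.73. The ATF4 list (-0.64 and -2.77), HIF targets (-0.92 and -1.84) and glycolysis (-0.54 and -1.94) had negative medians in both arms. Cytosolic ribosomal proteins had a median of -0.52 with IL-2 and -0.52 without it.

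Few genes were called for a difference in the effect of IL-2 between pH 7.4 and pH 7, and a gene without a call may still differ. The difference between the 2 effects, tested as an interaction, was called for 662 genes, of which 359 had a more positive effect at pH 7.4 (2.60%) and 303 a more negative one (2.19%). Scaled to total counts, the split was 242 and 375. The number depended on single replicates and on the fit: it was 101 without replicate 2, 98 without replicate 3, 304 without replicate 4, 378 without replicate 5 and 177 with no replicate block. More genes were called without replicate 1 (711), with DESeq2 (1016) and in a fit of the groups compared (1632). In the main fit, 2618 genes had an unadjusted p under 0.05 in this edgeR test. Mitotic genes were prominent among the positive interactions. Of 79 genes of the mitotic list, 57 had a larger effect at pH 7.4, against 2.60% of all genes, and the median difference was 0.9 (median effect 4.05 at pH 7.4 and 2.96 at pH 7). The count fell to 11 without replicate 2, 10 without replicate 3 and 19 with no replicate block, while the median difference stayed between 0.81 and 1.0 over the settings. In the replication list 5 of 63 were called, with a median difference of 0.21 (Mcm10 0.95, Rrm2 0.9, Ticrr 0.85, Lig1 0.61 and Prim2 0.38). Pbk (1.63 ± 0.46), separase (Espl1, 1.45 ± 0.29), Troap (1.38), the chromokinesin Kif4 (1.35) and the helicase Pif1 (1.34) had the largest positive differences under the naming rule. Mycn was among the called (1.09, adjusted p = 5.4e-04), and Myc was not (0.29, adjusted p = 0.35). When each replicate was left out in turn, Kif4 and Mycn stayed called in 5 of 5 fits, while Espl1, Ticrr and Lig1 lost their call without replicate 2, Troap and Pif1 without replicate 2 or 3, Rrm2 without replicate 1, 2 or 3, Mcm10 and Pbk without any of replicates 1 to 4 and Prim2 without any replicate but 4. The difference for Pbk kept its sign, between 1.44 and 1.82, in these fits.

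Interferon-stimulated genes formed the other end. Of 59 tested, 28 had a more negative IL-2 effect at pH 7.4 than at pH 7, against 2.19% of all genes, and none a more positive one. Their median effect was -0.24 at pH 7.4 and 0.33 at pH 7. This count was 10 without replicate 2, 12 without replicate 3, 16 without replicate 4, 14 without replicate 5 and 13 with no replicate block. The largest negative difference under the naming rule was that of Ifng (-1.46 ± 0.36, adjusted p = 0.017), whose rise with IL-2 was 1.78 at pH 7.4 and 3.24 at pH 7. Dtx4 (-1.23), Pou6f1 (-1.16), Spo11 (-1.08) and Ikzf2 (-1.08) followed, and the fitted effect on each of these 4 was below 0 at both pH values. Ifng lost its call without replicate 1 or 2 (between -1.55 and -1.35 over the 5 fits), Spo11 without replicate 2 and Ikzf2 without replicate 2 or 3, and Dtx4 and Pou6f1 stayed called in 5 of 5. The list of Cish, the SOCS genes and the Pim kinases held no call for a difference between pH 7.4 and pH 7.

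At pH 6.6 the response differed for most genes. The interaction was called for 9261 genes, 4526 with a more positive effect at pH 7.4 (32.8%) and 4735 with a more negative one (34.3%). With total-count scaling the split was 3518 and 5945. All of the 63 replication genes had a larger effect at pH 7.4, and their median effect was 0.55 at pH 6.6. The corresponding median of the mitotic list was 0.22, that of ribosome biogenesis 0.39 and that of the ATF4 list 0.02. Of 57 tested IL-2 and STAT5 responsive genes, 25 had a more positive effect at pH 7.4 and 13 a more negative one. For the list of Cish, the SOCS genes and the Pim kinases, the counts were 4 and 2 of 11. Some STAT5 responsive genes had effects of similar size at both pH values. The IL-2 effect on Bcl2 was 1.52 at pH 7.4 and 1.6 at pH 6.6, and the difference did not pass the test (-0.09 ± 0.13, adjusted p = 0.58). The same held for Socs1 (1.82 and 1.85, adjusted p = 0.9), Pim2 (1.13 and 1.18, adjusted p = 0.86) and Ccnd2 (1.51 and 1.34, adjusted p = 0.28). The effect on Cish was larger at pH 7.4 by 1.21 ± 0.24 but stood at 1.9 at pH 6.6. Bcl2l1 (2.63 and 0.34), Pim3 (2.21 and 0.39), Socs2 (1.96 and 0.47), Il2ra (1.58 and 0.32), Mycn (4.76 and 0.25) and Myc (3.31 and 1.07) all had larger effects at pH 7.4. Gzmb (6.05 and 3.24), Prf1 (3.69 and 2.4) and Lif (7.09 and 2.64) did too. The largest positive differences under the naming rule were those of Pbk (5.75), Cdc6 (5.63), Pclaf (5.34), Uhrf1 (5.33) and Rrm2 (5.24), and the largest negative those of Il7r (-4.99), Slc26a11 (-4.17), C030034L19Rik (-4.11), Arl5c (-3.99) and Tbc1d4 (-3.98).

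**Figure D5:**
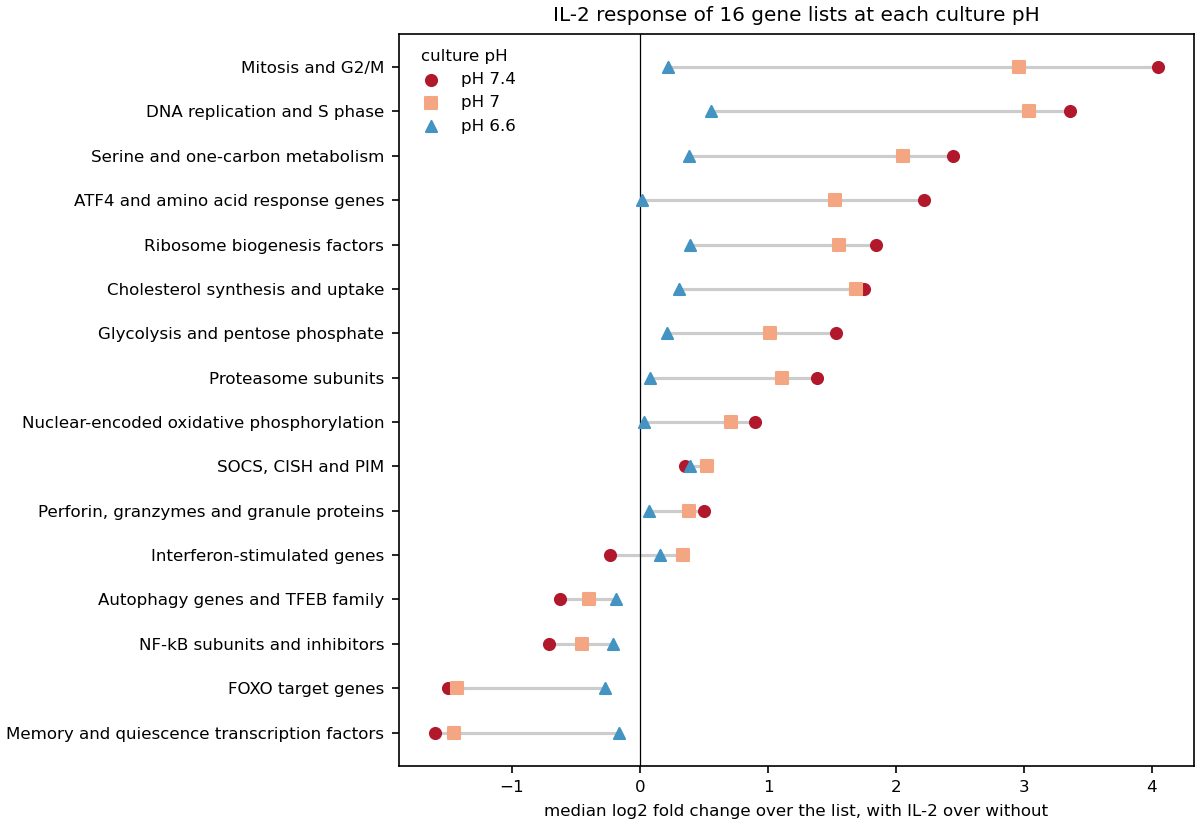
Median log2 fold change with IL-2 over without (horizontal axis) for 16 gene lists (vertical axis) at culture pH 7.4 (circles), pH 7 (squares) and pH 6.6 (triangles). The circles and squares lie close together for most lists, with the mitotic list at 4.05 and 2.96, and the triangles lie between -0.27 and 0.55. For the list of Cish, the SOCS genes and the Pim kinases, the 3 medians were 0.36, 0.52 and 0.39. Of the 11 members of this list, 4 had a more positive and 2 a more negative effect at pH 7.4 than at pH 6.6.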

How the data were processed

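RNA-seq libraries (TruSeq stranded mRNA, single reads, Illumina HiSeq) were made from 35 samples in 7 groups of 5. The authors deposited raw read counts per gene for each library, and the submitters' processing notes name cutadapt 1.8, STAR 2.5.2b, HTSeq 0.6.1 and GRCm38. Read length, the annotation release and the strand setting of the counting are not given in the sources used here. The closing rows of each file, which name no gene, were left out of tests. Those for reads outside genes held 10.2% of reads at most in the 15 libraries at 0 h and pH 7.4. Those for reads with more than 1 alignment held more, at 32.8% to 37.1% without IL-2, 36.8% to 40.6% with IL-2 and 39.3% to 48.3% at 0 h. Of 48709 identifiers, 48349 were paired with a symbol, gene type and position from GENCODE M21.

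Counts were tested with edgeR 4.0.16 in R 4.3.3. Genes passing filterByExpr over the 7 groups (minimum count 10) were kept, scaled by TMM and fitted with robust quasi-likelihood dispersions over all 35 libraries, with terms for group and replicate number. The pH comparisons are interaction contrasts. Benjamini-Hochberg adjustment was over all 13819 genes, the threshold was 0.05, and standard errors are the log2 fold change over the root of the F statistic. The numbers 1 to 5 come from the labels. Deviations from the group means correlated at 0.115 to 0.444 in the 5 replicate pairs with and without IL-2. Pairs with different numbers had a median correlation of -0.0694 but reached 0.252, above the lowest same-number pair. The number was kept as a block in the main fit, and results without the block are given below. No 2 libraries of a group agreed within sampling noise. The labels do not say whether replicates came from separate mice, so p-values measure the spread between these samples. With total counts of at least 21982865 reads on genes per library, counting error is small for highly expressed genes. It is not small for values near 1 CPM, which rest on few reads. Counting intervals would not cover the spread between cultures.

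Lists of genes were written from general knowledge, and members and lists were chosen with earlier results of these data known. A list is described by its called members and median. Named genes are the 10 largest rises and falls among called genes that averaged 3 or more on the log2 CPM scale and moved one way in every pair, the 4 largest of each kind in every list, all members of lists of 12 or fewer genes, the IL-2 receptor, JAK1, JAK3, STAT5 and Myc, the 5 largest interactions in each direction at each pH and the 3 largest rises and falls among long non-coding RNAs. Named outside this rule, after their values were seen, were Abca1, Atf4, Atf6, Bach2, Batf3, Bmf, Ccnd2, Ccnd3, Ccr2, Cd70, Cd74, Cd83, Cdk6, Csf2rb, Cst7, Cxcr3, Dhrs3, Dusp4, Dusp6, E2f7, Ezh1, Fasl, Fosl1, Foxo1, G2e3, Gadd45b, Hif1a, Ifnar2, Il17ra, Il1rl1, Insr, Irf4, Irs2, Isg15, Itgal, Lef1, Lig1, Mcm6, Mga, Mnt, Mtor, Mxd3, Orc1, Pdk2, Pfkfb4, Prdm1, Prim2, Qars, Serpinb9, Slc1a5, Slfn1, Spred2, Spry4, Suv39h2, Tbx21, Ticrr, Tnfrsf8, Tnfsf10, Trat1 and Unc13d. Some genes are not reported here. Promoter sequences are from RefSeq (GRCm38.p6). Alternatives were other scalings, filters, DESeq2 1.42.0, a fit on the compared groups alone, no block, a 2-fold threshold and leaving out each replicate.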

Additional observations from a re-analysis of the deposited data

Results flagged for a closer look

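Replicate 1 with IL-2 stood apart in 1 of 82 sets of 5 values (41 genes in 2 groups) by Dixon's test at the 95% level, which marks about 1 in 20 such sets by chance. Slc26a11 was at 6.41 CPM in it against 3.88 to 4.51 CPM in the other 4 libraries with IL-2.

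The effect of IL-2 differed between pH values by the interaction test in 662 genes for pH 7.4 against pH 7 and in 9261 genes for pH 7.4 against pH 6.6.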

How the results depend on the processing

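The 11111 genes changed by IL-2 at pH 7.4 numbered 9042 to 11796 over the scalings, filters, DESeq2, the fit on the groups compared, the fit with no replicate block (10753) and the fits without 1 replicate, and no gene called in both the main and another of these fits changed sign. With total counts in place of TMM, 4720 were higher and 6436 lower. Requiring a 2-fold change left 5657 genes for IL-2 at pH 7.4, 120 and 4688 for its difference from pH 7 and pH 6.6, and 2091 and 4205 for the cells with and without IL-2 against 0 h. The 662 genes of the comparison with pH 7 became 326 under the looser filter, 1016 with DESeq2, 1632 in a fit of the groups compared and 177 with no replicate block, and from 98 (without replicate 3) to 711 (without replicate 1) when a replicate was left out. The cause was not tested. Without the block, the calls for a difference from pH 7 also fell from 57 to 19 in the mitotic list, 28 to 13 in the interferon list, 8 to 3 in the ribosome biogenesis list and 5 to 2 in the replication list, and the 1 lower mitochondrial transcript was not called. The other comparisons over all genes moved by less than 1.5 times without it (8703 genes for pH 6.6, 7576 and 9970 against 0 h). Under total counts the median of the RAS and MAPK cascade list was -0.0398 and that of the mTORC1 list -0.0666. The mTORC1 median ran from -0.0135 (without replicate 2) to 0.0998 when a replicate was left out. Of the values of named genes under the alternatives, 5032 kept direction and side of the threshold, 43 lost their call and 14 gained one. Depth limits the precision of genes near the filter on low counts.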
